A study of Mus musculus with 6 samples.

Results

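Sterol and fatty acid synthesis was examined through 36 genes, among 48587 listed in the count table, in 4T1 cells with and without METTL7A1, a putative methyltransferase that resides partly at the endoplasmic reticulum (ER). The genes were chosen by name: enzymes of cholesterol and fatty acid synthesis, and the regulators of the SREBP transcription factors that control them. 4T1 cells derive from a mammary tumour of a BALB/c mouse. The METTL7A1 group held 3 libraries from 4T1 cells stably transfected with FLAG-tagged full-length Mettl7a1 cDNA in pBICEP-CMV-2, a vector with a CMV promoter, and the mock group held 3 libraries from 4T1 cells that received the empty vector. One treatment text, with G418 selection, is given for all 6 libraries, which the labels call biological triplicates. Whether each population was a clone or a pool is not stated in the sources used here, and a difference between the groups cannot be told apart from a difference between the populations.

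Cells make cholesterol and fatty acids from acetyl-CoA. SREBP proteins are made as precursors in the ER membrane. The escort SCAP carries them to the Golgi apparatus, where proteases release the active factor, and INSIG proteins hold SCAP back in the ER when sterols are plentiful. The product of Srebf2 acts mostly on genes of cholesterol synthesis, and the products of Srebf1 mostly on genes of fatty acid synthesis. Many tumour cells synthesise these lipids at a high rate. The level of an mRNA does not show how much SREBP protein was cleaved.

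In METTL7A1 cells, 19 of the 36 genes were higher than in mock cells and 5 were lower at an adjusted p under 0.05 (edgeR quasi-likelihood test, adjusted over all 13166 genes tested). Among all genes tested, 21.1% were higher and 21.0% lower at that threshold, compared with 52.8% and 13.9% of the 36. The rises included 9 enzymes of cholesterol synthesis, the cholesterol carrier Stard4 and the regulators Srebf2, Insig1 and Insig2. On the fatty acid side, Acss2 and Acacb, the desaturases Scd2, Fads1 and Fads2 and the elongase Elovl5 rose. The falls were those of Fasn, Acly and Acaca, the central enzymes of fatty acid synthesis, of the elongase Elovl1 and of Scap. The median log2 fold change was 0.28 over the 36 genes and -0.03 over all genes tested. All METTL7A1 libraries lay above all mock libraries in 17 of the 36 genes, compared with 25.9% of all genes tested. They lay below all mock libraries in 5 of the 36, compared with 25.6% of all genes tested. None of the 36 reached the thresholds of the study, an adjusted p under 0.01 with a log2 fold change beyond 1.5, which 1.61% of all genes reached upwards and 0.866% downwards. As total RNA of many cells was measured, fewer cells with a transcript and less transcript per cell cannot be told apart.

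**Figure D1:**
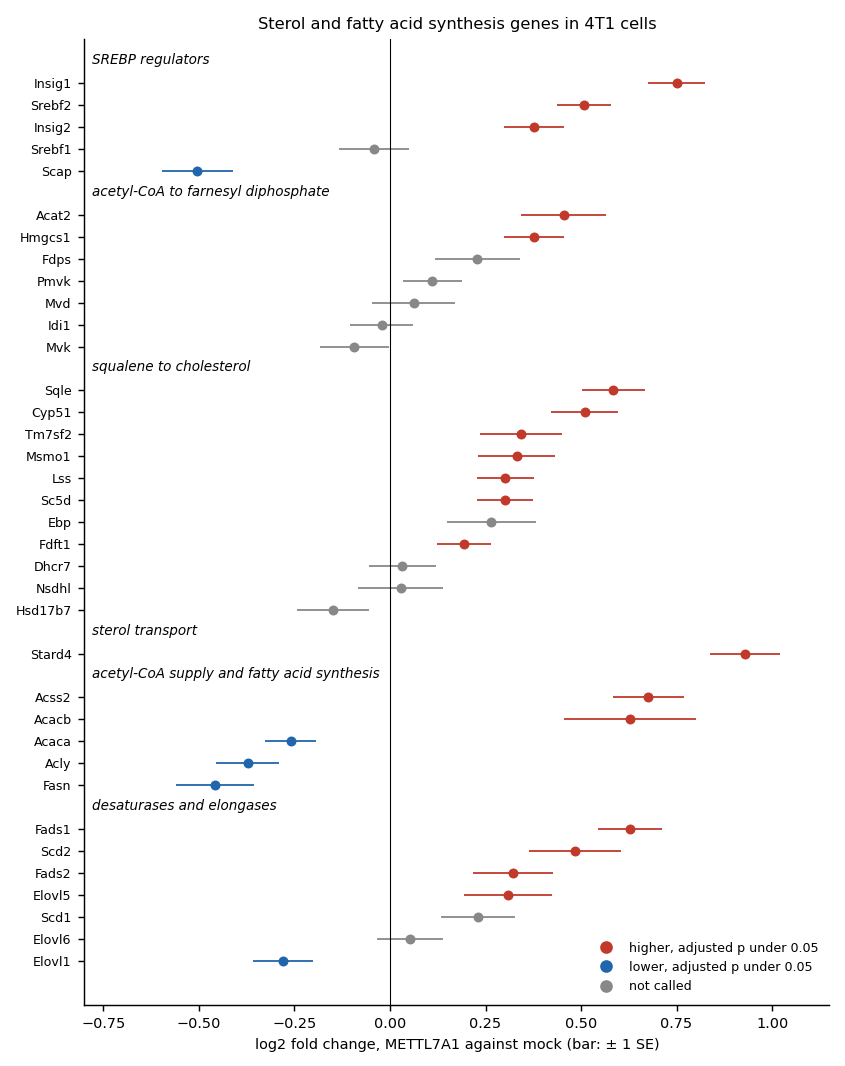
The log2 fold change of each of the 36 genes, METTL7A1 against mock, on the horizontal axis, with a bar of 1 standard error (SE) to each side and the genes grouped by role. Red points (19) are higher and blue points (5) lower at an adjusted p under 0.05. The largest rise is that of Stard4 at 0.93 and the largest fall that of Scap at -0.50.

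The promoters of 4 members are shown because they belong to genes at the centre of the comparison: Insig1, Hmgcs1 and Srebf2, which rose, and Fasn, which fell. Each sequence is the 250 bases before the annotated start of transcription, read on the strand of the gene from RefSeq sequences of GRCm38.p6, the build of the count table. Capitals mark CCAAT, the site of the factor NF-Y, GGGCGG, the site of Sp1, and TCACNCCAC, the core of a sterol regulatory element, each on either strand. SREBP proteins are known to act on promoters together with NF-Y or Sp1. The Insig1 sequence lies at chr5:28071162-28071411 (+ strand), that of Hmgcs1 at chr13:119690101-119690350 (+ strand), that of Srebf2 at chr15:82147019-82147268 (+ strand) and that of Fasn at chr11:120824548-120824797 (- strand).
Insig1: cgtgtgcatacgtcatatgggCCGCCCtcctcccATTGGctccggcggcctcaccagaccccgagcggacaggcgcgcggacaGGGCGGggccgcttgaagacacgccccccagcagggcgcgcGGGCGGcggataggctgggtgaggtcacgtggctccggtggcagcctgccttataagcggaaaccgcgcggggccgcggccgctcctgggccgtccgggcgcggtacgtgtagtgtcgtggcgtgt
Hmgcs1: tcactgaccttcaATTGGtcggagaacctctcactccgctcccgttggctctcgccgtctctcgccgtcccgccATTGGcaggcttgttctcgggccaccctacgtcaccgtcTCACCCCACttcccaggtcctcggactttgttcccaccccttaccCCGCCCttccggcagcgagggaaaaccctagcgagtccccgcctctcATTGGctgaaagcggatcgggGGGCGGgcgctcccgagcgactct
Srebf2: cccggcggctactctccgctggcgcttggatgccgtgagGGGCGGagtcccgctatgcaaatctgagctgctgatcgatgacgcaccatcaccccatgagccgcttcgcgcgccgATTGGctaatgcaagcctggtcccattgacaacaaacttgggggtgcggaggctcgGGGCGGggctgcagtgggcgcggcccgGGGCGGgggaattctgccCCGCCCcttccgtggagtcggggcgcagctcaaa
Fasn: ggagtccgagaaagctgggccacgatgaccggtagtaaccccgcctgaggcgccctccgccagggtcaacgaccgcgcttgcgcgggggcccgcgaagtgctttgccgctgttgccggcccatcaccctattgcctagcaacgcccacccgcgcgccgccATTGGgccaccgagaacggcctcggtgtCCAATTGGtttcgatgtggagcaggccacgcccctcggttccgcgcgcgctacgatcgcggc

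Of these sequences, that of Hmgcs1 held a match to TCACNCCAC, 137 to 129 bases before the start. It also held 3 matches to CCAAT, the nearest 45 bases before the start, and 2 to GGGCGG. Insig1 held 1 match to CCAAT and 3 to GGGCGG, and Srebf2 held 1 and 4. Fasn held 3 matches to CCAAT, of which those at 62 and 59 bases before the start overlap on opposite strands, and none to GGGCGG.

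The search was extended to windows of 300 bases, 250 before and 50 after the start, of all 29 members with such a window. CCAAT was found on either strand in 24 of these 29 genes (82.8%), compared with 43.4% of 8911 genes that were tested and had a window. It was present in 12 of 14 members that rose (85.7%), in 9 of 10 that were not called and in 3 of 5 that fell. Thus CCAAT was about as common in members that were not called as in those that rose. GGGCGG was found in 79.3% of the members and 70.9% of the genes tested, and the E-box CANNTG in 72.4% and 66.7%. TCACNCCAC was found in Hmgcs1 alone, and in 1.36% of the genes tested. A match is a string of letters and was not examined for binding. A window without a match says nothing on sites with other letters inside it, such as near matches, or on sites elsewhere in the gene.

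The transfected gene followed the labels in every library. The counts of Mettl7a1 were 6355, 11358 and 10398 in the METTL7A1 libraries, compared with 30, 30 and 29 in mock, a log2 fold change of 8.17 (edgeR adjusted p = 4.89e-11, SE 0.14). Library totals lay between 18386780 and 28459338 counts. Members had between 62 and 73694 counts in any library, and all 36 passed the abundance filter. Markers of mammary epithelium (6) were all detected, with Cldn3 called as higher and with summed levels of 1566 to 1892 cpm (counts per megaread of scaled library size) in METTL7A1 and 1460 to 1792 cpm in mock libraries. The summed level of 6 adipocyte markers was at most 0.169 cpm in any library, and Cidec was at 0 throughout. That of 3 hepatocyte markers was at most 0.0805 cpm, with Ttr at 0 throughout, and that of 3 endothelial markers at most 0.892 cpm. The 5 macrophage and leukocyte markers summed to 14.1 to 16.5 cpm in METTL7A1 and 5.85 to 6.76 cpm in mock libraries. Of these, Cd68 and Csf1r were called as higher, while Adgre1 and Lyz2 were at most 0.0825 cpm. The 5 fibroblast markers summed to 23.9 to 26.8 and 17.5 to 19.8 cpm, nearly all of it Pdgfra, and Dcn was at most 0.162 cpm. The part of these differences in the results on the 36 genes was not tested.

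Among the SREBP regulators, 3 of 5 genes rose and 1 fell, compared with 21.1% and 21.0% of all genes tested. The counts of this and the other role groups rest on few genes and are to be read beside these shares. Insig1 (chromosome 5, 28071363 to 28078662) encodes an ER anchor of SCAP and is itself a classical SREBP target. It had 227, 216.7 and 223.4 cpm in METTL7A1 replicates 1 to 3 and 137, 138.5 and 121.1 cpm in the mock replicates. The groups were well apart, with a log2 fold change of 0.75 (edgeR adjusted p = 2.27e-05, SE 0.08). Its paralog Insig2 (chromosome 1) had 32.0, 34.8 and 32.8 cpm against 23.9, 26.7 and 26.0 cpm. Its log2 fold change of 0.38 (edgeR adjusted p = 0.00288, SE 0.08) was smaller, and here too the groups did not overlap.

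The SREBP genes themselves differed from each other. Srebf2 (chromosome 15, 82147266 to 82205376) had 134, 134.2 and 146.5 cpm in METTL7A1 replicates 1 to 3 and 95.8, 102.9 and 93.0 cpm in mock. All METTL7A1 libraries lay above all mock libraries, and the log2 fold change was 0.51 (SE 0.07, edgeR adjusted p = 0.000232). Srebf1 (chromosome 11, 60199089 to 60220604) had 147.1, 154.8 and 146 cpm against 173.3, 153.9 and 134.2 cpm. The mock libraries of Srebf1 spanned the METTL7A1 libraries, and the log2 fold change of -0.04 was within its SE of 0.09 (edgeR adjusted p = 0.743). The counts do not separate the transcripts of Srebf1 that encode SREBP-1a and SREBP-1c.

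Scap (chromosome 9, 110333356 to 110384950), the escort of both SREBP proteins, moved against Srebf2. It had 71.0, 82.2 and 81.7 cpm in the METTL7A1 libraries and 120.6, 116.4 and 96.7 cpm in mock. The groups did not overlap, and the log2 fold change of -0.50 (edgeR adjusted p = 0.00143, SE 0.09) was the largest fall among the 36 genes. Insig1, Insig2, Srebf2 and Scap were called in the same direction under all 15 alternative settings, among them the 6 fits with a library omitted. The size of the rise of Srebf2 was less stable, as its 40 neighbours had a median of 0.25 on the log2 scale, and with their shift removed it was at 0.25 (edgeR adjusted p = 0.0195).

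**Figure D2:**
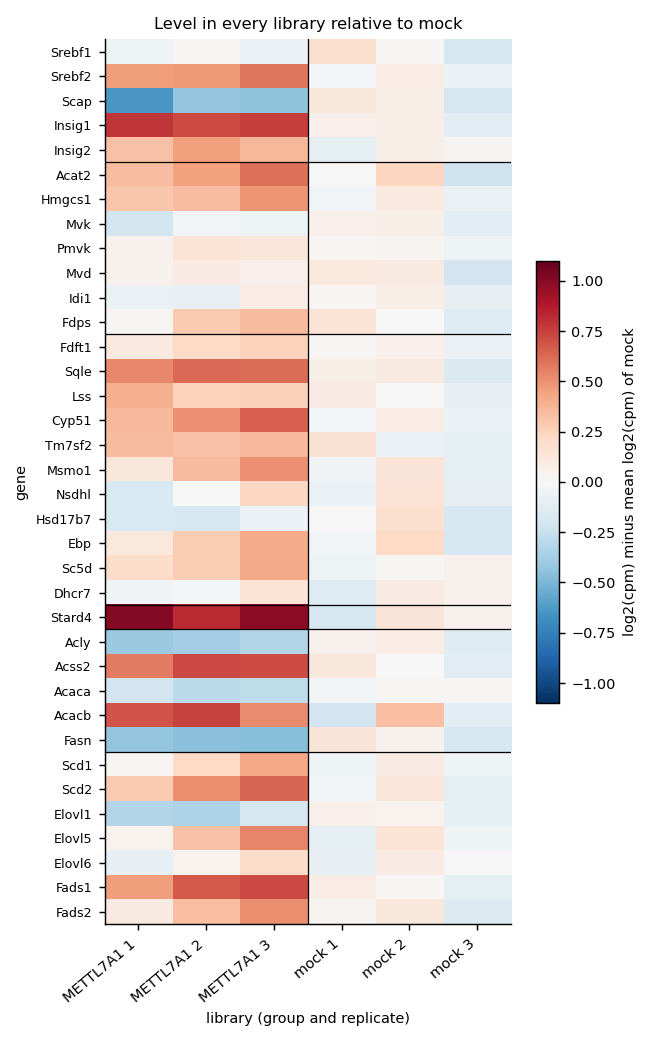
Level of each of the 36 genes (rows, in the order of their roles) in each library (columns), as log2(cpm) minus the mean log2(cpm) of the mock libraries. Red is above and blue below the mock mean. Stard4, Insig1, Acss2, Fads1 and Sqle are red in all 3 METTL7A1 libraries, and Scap, Acly and Fasn are blue in all 3.

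The 18 enzymes that lead from acetyl-CoA to cholesterol had 9 members that rose and none that fell, compared with 21.1% and 21.0% of all genes tested. The median of the 18 was 0.25 on the log2 scale. The other 9 were not called, with log2 fold changes between -0.15 and 0.26. Of the early enzymes, which make farnesyl diphosphate, 2 of 7 rose, compared with 21.1% of all genes tested. These are too few genes to set the early enzymes apart from that share. The 2 that rose act in the opening steps. Hmgcs1 (chromosome 13), HMG-CoA synthase, had 149.4, 153 and 169.9 cpm in the METTL7A1 libraries and 118.4, 130.1 and 115.1 cpm in mock. The groups did not overlap, and the log2 fold change was 0.38 (SE 0.08, edgeR adjusted p = 0.00272). Acat2 (chromosome 17), a cytosolic acetoacetyl-CoA thiolase, had 65.2, 70.0 and 78.3 cpm against 51.2, 60.7 and 43.9 cpm. Its log2 fold change was 0.45 (SE 0.11, edgeR adjusted p = 0.00714), with separated groups.

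Acat2 shares 43.8% of its stretches of 31 transcript bases with its neighbour Acat3, which had at most 132 counts in any library, so that reads of the pair could have been exchanged. The kinases Mvk and Pmvk, the decarboxylase Mvd, the isomerase Idi1 and the prenyl transferase Fdps, which act next, were not called. Their log2 fold changes lay between -0.09 (Mvk) and 0.23 (Fdps), with SE of at most 0.11. Fdps was called as higher without METTL7A1 replicate 1 (0.33, edgeR adjusted p = 0.0198), and its adjusted p ranged from 0.0198 to 0.314 over all alternatives. It shares 27.9% of its stretches of 31 bases with other genes, mainly Gm43738, a gene with at most 1 count. Exons of Gm43738 cover 77.4% of the exon length of Fdps on the same strand. How reads that lie in both were counted is not stated in the sources used here, so the level of Fdps could be affected.

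Of the 11 enzymes between farnesyl diphosphate and cholesterol, 7 rose, compared with 21.1% of all genes tested. Sqle (chromosome 15, 59315081 to 59331192), squalene epoxidase, a rate-limiting enzyme of the pathway, had 210.8, 224.8 and 223.5 cpm in the METTL7A1 libraries and 152.5, 156 and 131.1 cpm in mock. The groups were apart and the log2 fold change was 0.58 (SE 0.08, edgeR adjusted p = 0.000217). Cyp51 (chromosome 5), lanosterol demethylase, had 208.6, 231.4 and 257.4 cpm against 161.2, 173.2 and 155.8 cpm. Its log2 fold change was 0.51 (SE 0.09, edgeR adjusted p = 0.00087), again with separated groups.

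Lss (chromosome 10), lanosterol synthase, had 99.7, 90.7 and 91.5 cpm in METTL7A1 and 81.1, 76.1 and 71.4 cpm in mock libraries. It rose by a log2 fold change of 0.30 (edgeR adjusted p = 0.00686, SE 0.07) without overlap of the groups. Sc5d (chromosome 9), a desaturase of the sterol ring, had 130.9, 137.5 and 151.3 cpm against 108.9, 114.3 and 117.5 cpm. Its log2 fold change was also 0.30 (SE 0.07, edgeR adjusted p = 0.00742), and its groups were apart. The rise of Lss is shared by its surroundings. Around it on chromosome 10, the median over the 40 closest abundant genes was 0.33 on the log2 scale, and with that shift taken out Lss was at -0.03 (edgeR adjusted p = 0.792).

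The remaining rises of this stretch were smaller or less stable. The sterol reductase Tm7sf2 (0.34, SE 0.11) and the methyl sterol oxidase Msmo1 (0.33, SE 0.10) each lost their call in 3 of the 6 fits that left out a library. Those were the fits without METTL7A1 replicate 2 or 3 and, for Tm7sf2, mock replicate 2 or, for Msmo1, mock replicate 1. Squalene synthase, Fdft1 (0.19, SE 0.07, edgeR adjusted p = 0.0457), was called in 1 of these 6 fits, the one without METTL7A1 replicate 1. Its edgeR adjusted p was 0.0602 to 0.159 when any of the other libraries was left out. Its neighbours had a median of -0.26, and with their shift removed Fdft1 was at 0.46 (edgeR adjusted p = 0.000586). Of its exon length, 26.8% lies opposite exons of Ctsb. The 4 enzymes that were not called were Nsdhl (0.03), Dhcr7 (0.03), Hsd17b7 (-0.15) and Ebp (0.26), with SE between 0.09 and 0.12. Ebp, a sterol isomerase, was called as higher without METTL7A1 replicate 1 (0.35) or mock replicate 2 (0.38), and Hsd17b7 as lower without mock replicate 3 (-0.23).

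Stard4 (33199355 to 33213862 of chromosome 18) encodes a cytosolic carrier of cholesterol and had the largest rise of the 36 genes. It had 76.5, 67.3 and 74.98 cpm in the METTL7A1 libraries and 33.4, 41.9 and 39.2 cpm in mock, with no overlap. The log2 fold change of 0.93 (edgeR adjusted p = 2.06e-05, SE 0.09) was above that of 95.8% of all genes tested. Over its 40 closest abundant neighbours the median was 0.27 on the log2 scale, and with that shift removed Stard4 was at 0.66 (edgeR adjusted p = 0.000286).

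Fatty acid synthesis from acetyl-CoA went both ways. All 5 genes of this group were called, 3 as lower and 2 as higher, while 42.1% of all genes tested were called either way. Fasn (chromosome 11, 120805846 to 120824547), fatty acid synthase, had 1003, 982.5 and 979.6 cpm in the METTL7A1 libraries and 1495, 1394 and 1184 cpm in mock. The METTL7A1 libraries lay close together and below every mock library, with a log2 fold change of -0.46 (edgeR adjusted p = 0.00445, SE 0.10). Acly (chromosome 11), ATP citrate lyase, which makes cytosolic acetyl-CoA from citrate, had 338.6, 346.7 and 359 cpm against 466, 476.9 and 409.1 cpm. Its log2 fold change was -0.37 (SE 0.08, edgeR adjusted p = 0.00401), with separated groups.

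Acaca (chromosome 11), the acetyl-CoA carboxylase of the cytosol, had 178, 168.6 and 170 cpm in METTL7A1 and 202.3, 208 and 208.1 cpm in mock libraries. The fall was small, with a log2 fold change of -0.26 (edgeR adjusted p = 0.00899, SE 0.07), and was not called without METTL7A1 replicate 2 (edgeR adjusted p = 0.0564). Its paralog Acacb (chromosome 5), the carboxylase at the mitochondrial surface, was scarce and rose. It had 6.36, 6.60 and 5.64 cpm against 3.39, 4.95 and 3.62 cpm, a log2 fold change of 0.63 (edgeR adjusted p = 0.0129, SE 0.17). The call of Acacb was lost without METTL7A1 replicate 2 or mock replicate 1 (edgeR adjusted p = 0.0646 and 0.0507).

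Acss2 (chromosome 2, 155517948 to 155585724) makes acetyl-CoA from acetate, a second source of the same precursor. It had 23.7, 26.4 and 26.1 cpm in the METTL7A1 libraries and 17.3, 15.8 and 14.7 cpm in mock. The groups did not overlap, and the log2 fold change was 0.68 (SE 0.09, edgeR adjusted p = 0.00019). Thus Acly and Acss2, which supply cytosolic acetyl-CoA from different substrates, were called in opposite directions. The 3 genes that fell, Fasn, Acly and Acaca, lie far apart on chromosome 11, where 858 genes with a mean above 4 cpm had a median log2 fold change of -0.08. With the shift of the 40 nearest neighbours removed, Acly (-0.31) and Acaca (-0.25) kept their call, while Fasn was at -0.29 with an edgeR adjusted p of 0.0519.

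**Figure D3:**
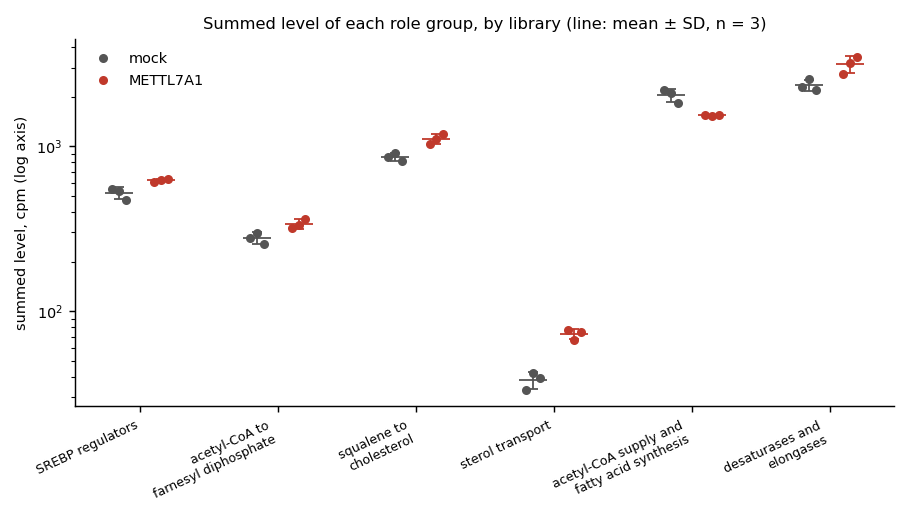
Summed level in cpm (log axis) of the genes of each role group, with a point for each library, mock in grey and METTL7A1 in red, and a line with bars for mean and SD (n = 3 each). The METTL7A1 libraries lie above all mock libraries in every role group other than acetyl-CoA supply and fatty acid synthesis, where they lie below.

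Summed over the role groups, the enzymes from squalene synthesis to cholesterol reached 1104 ± 76.7 cpm in METTL7A1 cells, compared with 861 ± 49.2 cpm in mock (SD, n = 3 each). The 5 genes of acetyl-CoA supply and fatty acid synthesis went from 2034 ± 190.5 to 1540 ± 9.53 cpm (SD, n = 3 each), a sum of which Fasn makes up the greater part. Desaturases and elongases went from 2343 ± 182 to 3145 ± 378 cpm (SD, n = 3 each), mostly through Scd2. In no role group did the summed levels of the METTL7A1 and mock libraries overlap. Single genes without overlap were common as well, 25.9% of all genes tested with METTL7A1 higher and 25.6% with METTL7A1 lower. These sums follow the choice of members and carry no test of their own.

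Desaturases and elongases, which shape finished fatty acids, had 4 members that rose and 1 that fell among 7. Of all genes tested, 21.1% rose and 21.0% fell. Scd2 (chromosome 19, 44293676 to 44306864), a stearoyl-CoA desaturase that makes monounsaturated fatty acids, was the most abundant of the 36 genes. It had 2142, 2495 and 2723 cpm in the METTL7A1 libraries and 1717, 1918 and 1630 cpm in mock. The groups did not overlap, and the log2 fold change was 0.48 (SE 0.12, edgeR adjusted p = 0.00769). Scd1, the neighbouring paralog of Scd2, had 117.6, 134.5 and 155.1 cpm against 111.7, 123.4 and 112.1 cpm. Its groups overlapped and it was not called (0.23, SE 0.10, edgeR adjusted p = 0.076), although it was called without METTL7A1 replicate 1 (0.33, edgeR adjusted p = 0.00681) and with the neighbour shift removed (0.39).

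Fads1 (chromosome 19, 10182888 to 10196870) encodes the delta-5 desaturase of polyunsaturated fatty acids. It had 84.2, 97.9 and 101.4 cpm in METTL7A1 and 64.6, 61.9 and 57.2 cpm in mock libraries, without overlap. The log2 fold change was 0.63 (SE 0.08, edgeR adjusted p = 0.000167). Fads2, the delta-6 desaturase encoded next to Fads1, had 124.8, 146.5 and 165.4 cpm against 118.4, 126.4 and 105 cpm. Here METTL7A1 replicate 1 lay within the mock range. The log2 fold change was 0.32 (SE 0.10, edgeR adjusted p = 0.0283), and the call was lost without METTL7A1 replicate 2 or 3 or mock replicate 1 or 3.

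The elongases did not move together. Elovl5, which lengthens polyunsaturated chains, had 97.2, 118.7 and 137.1 cpm in METTL7A1 and 88.3, 105 and 91.8 cpm in mock libraries. Its groups overlapped, its log2 fold change was 0.31 (SE 0.11, edgeR adjusted p = 0.0487), and its call was lost without METTL7A1 replicate 2, METTL7A1 replicate 3 (0.19) or mock replicate 1 or 3. Elovl1, which lengthens saturated chains, had 32.5, 32.1 and 35.6 cpm against 42.1, 41.6 and 37.9 cpm. It fell by 0.28 on the log2 scale (SE 0.08, edgeR adjusted p = 0.0137), with separated groups, and was not called without METTL7A1 replicate 2 or mock replicate 1 or with the neighbour shift removed (-0.20, edgeR adjusted p = 0.0667). Elovl6, which lengthens the product of Fasn, was not called (0.05, SE 0.09, edgeR adjusted p = 0.666).

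The members spread over 17 chromosomes, and their changes can be set against those of their neighbours. Once the median change of 40 surrounding abundant genes was removed from each gene, 17 of the 19 calls as higher and 3 of the 5 as lower were kept. The lost calls were those of Lss, Acat2 (0.19), Fasn and Elovl1, and Scd1 was newly called as higher. Whichever library was left out, 13 of the 19 rises and 3 of the 5 falls were called. The rises were those of Srebf2, Insig1, Insig2, Acat2, Hmgcs1, Sqle, Lss, Cyp51, Sc5d, Stard4, Acss2, Scd2 and Fads1, and the falls those of Scap, Acly and Fasn.

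**Figure D4:**
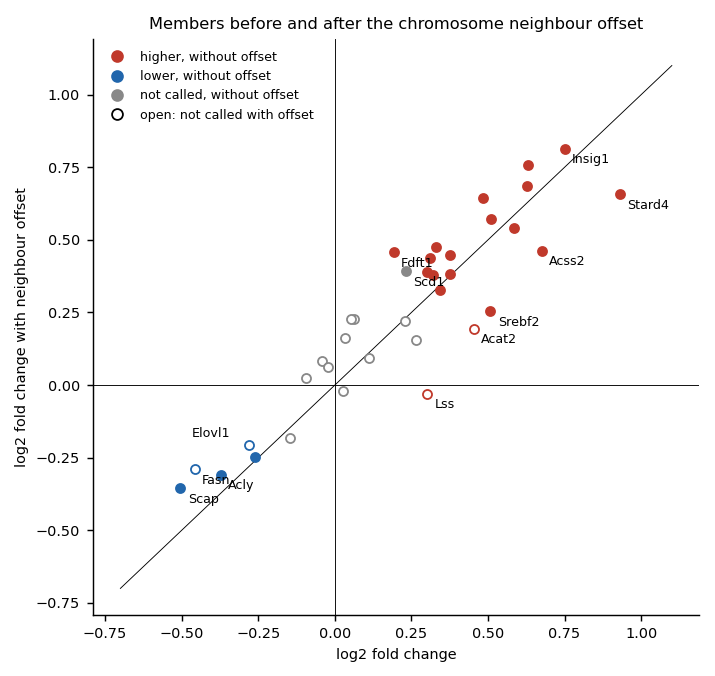
Log2 fold change of each of the 36 genes as measured (horizontal axis) and after the median of its 40 closest abundant neighbours was subtracted (vertical axis), with the diagonal of equal values. Colour gives the call as measured, and open points were not called after removal. Lss drops from 0.30 to -0.03, while Insig1 (0.81) and Stard4 (0.66) stay well above 0.

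Levels of different genes were compared as cpm per kb of exon (1000 bases), in mock cells. Scd2 stood first at 322 ± 27.1, followed by Fasn at 135 ± 15.8 and Acly at 97.8 ± 7.90 cpm per kb (SD, n = 3 each). Msmo1 (78.6 ± 6.86) and Fads2 (77.3 ± 7.15) came next and differed by less than their spread. Acacb was last at 0.454 ± 0.0959 cpm per kb. In METTL7A1 cells Scd2 was again first at 450 ± 53.7, while Msmo1 (98.9 ± 12.8), Fasn (98.4 ± 1.28) and Fads2 (96.5 ± 13.5) lay within their spread of each other. Stard4 went from rank 33 to rank 25 of the 36 and Scap from rank 13 to rank 20.

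Within pairs of paralogs the balance was compared as the ratio of counts per kb in each library, which does not depend on library scaling. Srebf1 to Srebf2 was 1.27, 1.34 and 1.16 in METTL7A1 replicates 1 to 3 and 2.10, 1.74 and 1.67 in the mock replicates, so that the groups did not overlap. Insig1 to Insig2 was 7.76, 6.82 and 7.46 against 6.28, 5.67 and 5.09. Both ratios moved towards the gene that rose more. Acaca to Acacb fell from 55.1, 38.8 and 53.1 in mock to 25.9, 23.6 and 27.9 in METTL7A1 libraries. Scd1 to Scd2 was 0.0619, 0.0608 and 0.0642 in METTL7A1 and 0.0734, 0.0725 and 0.0775 in mock libraries, and Fads1 to Fads2 was 0.294, 0.291 and 0.268 against 0.238, 0.214 and 0.238. All 5 pairs were separated between the groups. So were the levels of many single genes, 25.9% of all genes tested with METTL7A1 higher and 25.6% with METTL7A1 lower. For each pair the exact two-sided permutation test gave p = 0.1 (0.1 adjusted over the 5 pairs). This is the smallest value that 3 against 3 libraries allow and cannot pass 0.05.

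**Figure D5:**
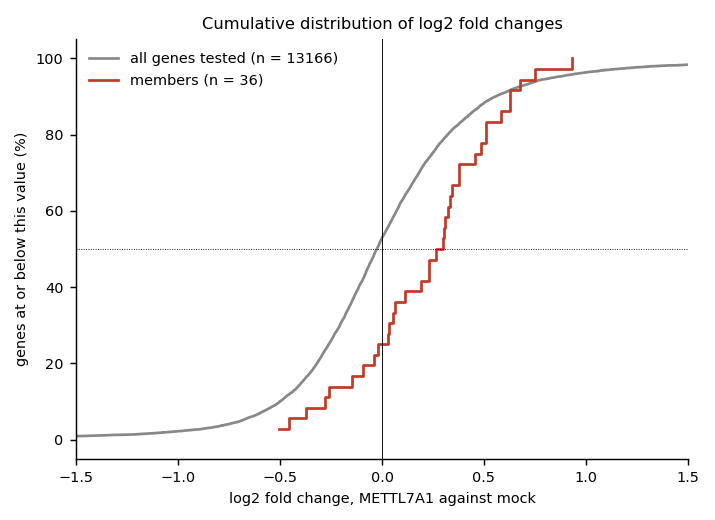
Share of genes (vertical axis, percent) with a log2 fold change at or below the value on the horizontal axis, for the 36 members in red and all 13166 genes tested in grey. The curve of the members lies to the right over most of the range, with a median of 0.28 compared with -0.03, and its top end at 0.93 stays inside the range of all genes.

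Libraries of a group also differed among themselves in these genes. METTL7A1 replicate 1 was the lowest of its group in 25 of the 36 genes (69.4%, compared with 41.3% of all genes tested). METTL7A1 replicate 3 was the highest in 22 (61.1%, compared with 37.8% of all genes tested). In the mock group replicate 3 was the lowest in 27 (75%, compared with 46.4% of all genes tested). Mock replicate 2 was the highest in 24 (66.7%, compared with 38.9% of all genes tested). The spread is seen in Scd2, Elovl5, Fads2 and Msmo1, and the last 3 of these are the called genes whose groups overlapped.

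A list of 96 other genes of lipid metabolism was looked up in the same fit. Of these 82 were tested, 26 rose and 14 fell, which makes 48.8% called, and their median log2 fold change was 0.09. Of all genes tested 42.1% were called, 21.1% as higher and 21.0% as lower. The counts of the smaller groups below are to be read beside these shares. Whichever library was left out, 20 of the 26 rises and 7 of the 14 falls were called. Among 10 genes of SREBP cleavage and turnover, 2 rose and 1 fell, no more than the shares of all genes tested. The proteases Mbtps1 (-0.09, SE 0.07) and Mbtps2 (0.08, SE 0.08), which cut SREBP in the Golgi apparatus, were not called. Erlin2 (0.57, SE 0.10) and Erlin1 (-0.35, SE 0.08), partners in an ER complex that binds sterol regulators, moved in opposite directions.

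Of 12 tested genes of sterol transfer and storage, 5 rose and 1 fell. The largest were Stard5 (0.68, SE 0.23), a scarce relative of Stard4 whose call was lost in 4 of the 6 fits that left out a library, and Tmem97 (-0.47, SE 0.12), a sterol-responsive ER protein. Of 6 tested genes of the LXR sterol receptors and their targets, Rxrb rose (0.60, SE 0.09, or 0.37 with the shift of its neighbours removed) and Nr1h3, which encodes LXR alpha, fell (-0.85, SE 0.24). Nr1h3 was scarce, at 1.35, 1.42 and 0.852 cpm against 2.08, 2.39 and 2.05 cpm, and was not called without METTL7A1 replicate 3 or mock replicate 2. The LXR targets Abca1 and Abcg1 did not pass the abundance filter and were not tested, with 0.324 and 0.908 cpm in METTL7A1 and 0.0991 and 0.477 cpm in mock cells on average.

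Both tested genes of oxysterol and bile acid synthesis rose. Cyp7b1, an oxysterol hydroxylase, had 3.61, 4.23 and 4.66 cpm in METTL7A1 and 1.86, 1.82 and 2.05 cpm in mock libraries, a log2 fold change of 1.13 (edgeR adjusted p = 0.000653, SE 0.19). The isoprenoid branch, which leaves the sterol pathway at farnesyl diphosphate towards ubiquinone, dolichol and prenylated proteins, had 7 genes that fell and none that rose among 13, and a median of -0.26 on the log2 scale. The largest fall there, that of Pdss2 (-0.53, SE 0.09), a subunit of the synthase of the ubiquinone side chain, was shared by its neighbours and was -0.04 once their shift was removed. With the shift of their neighbours removed, Fntb (0.06) and Rabggtb (-0.13) were not called either, and Fntb, Rabggtb and Pdss1 lost their call in some of the fits that left out a library (METTL7A1 replicate 2 for all 3, and mock replicate 1 or 2 or METTL7A1 replicate 3). Nus1, Coq2 and Icmt, which act in dolichol synthesis, ubiquinone synthesis and the methylation of prenylated proteins, were called as lower in each of these fits.

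On the fatty acid side, 3 of 7 genes of citrate and NADPH supply rose, led by malic enzyme, Me1 (0.61, SE 0.12), and none fell. Me1 was called whichever library was left out, whereas G6pdx was not called in 3 of the 6 fits and citrate synthase, Cs, in 4. The fits without METTL7A1 replicate 2 or 3 or mock replicate 1 lost both, and that without mock replicate 3 lost Cs, which was at -0.17 with the shift of its neighbours removed. Slc25a1, which carries citrate out of mitochondria to Acly, was not called (-0.04, SE 0.12). Among 11 tested genes of chain elongation and modification, 4 rose and 1 fell, with Hacd4 (0.85, SE 0.20) and Hacd1 (-0.38, SE 0.11), dehydratases of the elongation cycle, at the ends. The call of Hacd1 was lost without METTL7A1 replicate 2 or mock replicate 2.

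Among acyl-CoA synthetases, which activate fatty acids, Acsl3 rose (0.36, SE 0.08) and Acsl1 and Acsl6 fell. The call of Acsl1 (-0.30, SE 0.11) was lost without METTL7A1 replicate 1 or 2 or mock replicate 1 or 2. Acsl6 (chromosome 11) was the only gene of the list past the thresholds of the study. It had 3.29, 4.27 and 4.14 cpm in the METTL7A1 libraries and 21.6, 19.1 and 20.6 cpm in mock, a log2 fold change of -2.37 (edgeR adjusted p = 2.28e-07, SE 0.12). Of 16 genes of glycerolipid synthesis, which put fatty acids into membranes and fat, 8 rose and 1 fell. Chpt1, a cholinephosphotransferase of phosphatidylcholine synthesis, rose by a log2 fold change of 0.83 (SE 0.08), or 0.40 with the shift of its neighbours on chromosome 10 removed. Dgat2, an acyltransferase of triglyceride synthesis, fell by 0.70 on the log2 scale (SE 0.19) and was not called without METTL7A1 replicate 2 or mock replicate 1.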

How the data were processed

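Total RNA was measured in 6 libraries, grouped by sample title. Per the study's methods, stranded, ribosomal RNA-depleted libraries were trimmed with BBDuk, aligned to mm10 with STAR 2.5.3a and assigned to Ensembl genes with featureCounts. The authors deposited raw counts per gene, with total exon length. Strand and multimapping settings of the counting are not given in the sources used here. Whether reads of genes that overlap on opposite strands (Fdft1, Cyp51, Elovl1 and others) were told apart is therefore not known.

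edgeR 4.0.16 (R 4.3.3) was run on the deposited counts. The 13166 genes that reached 1 cpm in 3 or more libraries were tested. These held at least 99.76% of all counts. Libraries were scaled with TMM and the groups compared by the quasi-likelihood test without covariates, with Benjamini-Hochberg adjustment across all tested genes and a threshold of 0.05. The SE was derived from the F statistic. The p values measure the spread between these libraries, which exceeded counting error in every pair of replicates.

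Members, lists and tests were chosen with earlier results of these data known. All members are named. Values in every library are given for regulators, paralog pairs and up to 4 called members of each role group with the smallest p. In each group of the wider list, the called gene with the largest change in each direction is named. Library values of Elovl5 and Elovl1, and the mentions of Mbtps1, Mbtps2, Abca1, Abcg1, Slc25a1, Acsl1, Rabggtb, Fntb, Pdss1, Nus1, Coq2, Icmt, G6pdx and Cs, were added after their values were seen.

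Alternatives were RLE and upper quartile scaling, other abundance filters, removal of the 20 most abundant genes, a replicate block, DESeq2 1.42.0, voom of limma 3.58.1, omission of each library and an offset for the median change of 40 neighbouring genes with an average log2 cpm over 2. Promoters were RefSeq sequences of GRCm38.p6, matched by symbol. Shared stretches were counted in GENCODE M21 transcripts. Scripts were tested on simulated data.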

Additional observations from a re-analysis of the deposited data

How the results depend on the processing

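The count of members called higher stayed within 1.5 times of 19 in every setting, between 17 and 20 under the 9 settings that kept all libraries and between 13 (without METTL7A1 replicate 2) and 22 (without METTL7A1 replicate 1) with a library left out. The count of members called lower was 5, and 3 with no abundance filter and with the neighbour offset. It ranged from 3 (without METTL7A1 replicate 2) to 6 when a library was omitted. The genes of the wider list called lower were 14, and 8 without METTL7A1 replicate 2, 9 without mock replicate 2 and up to 17 without mock replicate 3, the other omissions lying between. The cause was not tested. The 20 most abundant genes include Scd2, which is why it has no value in that setting. The median log2 fold change of the members lay between 0.19 and 0.34, and the log2 fold change of Mettl7a1 between 7.91 and 8.32. Over all members and alternatives, 34 values lost their call with the sign kept and 8 gained one. The value of Lss with the neighbour offset also lost its call, with its sign changed. Among genes called in either fit, Lss (-0.030) and, in the wider list, Fntb (0.056), Pggt1b (-0.32) and Cs (-0.17) changed sign with the neighbour offset, by which their neighbours' shift is removed. Of genes called in neither fit, 7 members also changed sign, in 16 values of at most 0.0822 in size, and 20 genes of the wider list in 41 values. RLE and upper quartile scaling changed no call of a member. No member was past the thresholds of the study in any setting.

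Replicate numbers did not pair the libraries, as deviations from the group means correlated at -0.15, 0.20 and -0.37 for replicates 1 to 3. Between libraries with different numbers the correlations were larger at both ends. They ran from -0.47 (METTL7A1 replicate 1 with mock replicate 2) to 0.48 (METTL7A1 replicate 1 with mock replicate 3). With the replicate block, 17 members were called higher and 5 lower, of the wider list 26 and 13, and of all genes 4810. Under the block the members' median was 0.28 and the log2 fold change of Mettl7a1 8.17, and Fdft1 and Fads2 lost their call. Depth limited the scarce genes most: Acacb had 62 counts in its lowest library, and Abca1, Abcg1 and the adipocyte markers were too scarce for the abundance filter and were not tested.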
